A study of Neurospora crassa with 86 samples.

Results

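The comparison set the 3 libraries of Neurospora crassa mycelium labelled Δnit-4 on nitrate against the 3 wild type libraries on the same medium, 6 of the 86 RNA-sequencing libraries in the series. They were chosen by strain and medium labels alone, and all genes were described. The whole series covers 27 groups of strain and medium in this filamentous fungus. Cultures were grown from conidia for 24 h in minimal medium with 2% sucrose in constant light, washed, and transferred for 4 h before harvest. The libraries labelled Δnit-4 and the wild type libraries both came from medium with 50 mM NaNO3 and 2% sucrose. Set beside them are 3 Δnit-2 libraries on the same nitrate medium, 3 wild type libraries on 50 mM ammonium, 3 libraries labelled Δnit-4 without nitrogen and 6 wild type libraries without nitrogen, all with 2% sucrose. The labels call the replicates biological and do not say whether a deletion strain was 1 isolate or several.

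Nitrate enters the fungal cell through a transporter, is reduced to nitrite by nitrate reductase and then to ammonium by nitrite reductase, and the ammonium is built into glutamate and glutamine. NIT-4 is the activator specific to this pathway and acts when nitrate is present. NIT-2 is a GATA-type activator of many nitrogen genes when preferred nitrogen sources are scarce, and NMR is a negative regulator that binds it.

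Levels are FPKM, fragments per kilobase of transcript scaled to the mapped fragments of the library. They come from the joint table unless per-sample values are named, and there each library carries a further scale factor. Relative to the deposited per-sample FPKM this factor was -0.211, -0.00376 and 0.0626 log2 in libraries 1 to 3 labelled Δnit-4. In wild type on nitrate it was 0.219 to 0.251 log2. Differences were taken between means of log2(FPKM + 1), libraries labelled Δnit-4 minus wild type. Genes called, and only those, passed both an adjusted p under 0.05 (limma, Benjamini-Hochberg over 8558 genes tested) and a size of at least 1 log2. The estimated depth was 11300000 to 14200000 fragments in the libraries labelled Δnit-4 and 8230000 to 12500000 in wild type. Library 1 of the 3 labelled Δnit-4 stood apart from the other 2. Its FPKM summed to 454000, against 541000 and 569000, though these sums include the scale factors of the joint table. In library 1, 265 genes lay at least 1 log2 from the mean of the other 2 libraries, against 27 and 106 genes for those 2. Results are therefore also given without it.

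The deletion itself could not be checked by its transcript. nit-4 (NCU08294; supercontig 12.4, 2507739 to 2512139) had 4.35, 6.51 and 8.56 FPKM in the libraries labelled Δnit-4, against 6.10, 4.97 and 4.87 FPKM in wild type. The groups overlapped, and the difference was 0.21 ± 0.13 log2 (SE; limma adjusted p = 0.214). Without library 1 the groups did not overlap, and nit-4 was higher in the libraries labelled Δnit-4, by 0.43 log2 (adjusted p = 0.0201), under the threshold of size. Gene-level FPKM cannot tell which stretch of the gene the reads came from, so the strain is called by its label. Of the 3 neighbours on each side of nit-4, 5 were not called. The exception was NCU08292, at 53.9, 34.8 and 31.1 FPKM in the libraries labelled Δnit-4, against 15.6, 15.7 and 17.7 FPKM in wild type, a difference of 1.21 log2 (adjusted p = 1.07e-05) that was 0.97 log2, under the threshold, without library 1. Δnit-2 libraries, by contrast, had nit-2 at 3.66 to 4.51 FPKM, against 66.2 to 73.7 FPKM in wild type on nitrate.

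All 3 genes of the nitrate assimilation list fell in the libraries labelled Δnit-4. nit-6 (NCU04720; supercontig 12.6, 534862 to 539145), which encodes nitrite reductase, had 1.16, 1.20 and 2.39 FPKM in the libraries labelled Δnit-4, against 867, 734 and 751 FPKM in wild type. The means differed 494-fold, and the log2 difference of -8.27 ± 0.97 (SE; limma adjusted p = 1.73e-09) was the largest of all genes tested. nit-3 (NCU05298; supercontig 12.4, 5420216 to 5423422), the nitrate reductase gene, had 2.86, 2.76 and 2.37 FPKM in the libraries labelled Δnit-4, against 161, 194 and 185 FPKM in wild type. It was 67.5-fold lower by the means, with a difference of -5.62 ± 0.85 log2 (limma adjusted p = 7.42e-07). For both genes every library labelled Δnit-4 lay far below every wild type library. The low values still rested on an estimated 112 to 266 fragments per library for nit-6 and 186 to 255 for nit-3.

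nit-10 (NCU07205; supercontig 12.5, 6247448 to 6250397), the nitrate transporter gene, was merged with its neighbour NCU11348 in the joint table. There the entry had 98.8, 107 and 107 FPKM in the libraries labelled Δnit-4, against 1090, 811 and 840 FPKM in wild type, a difference of -3.11 ± 0.53 log2 (limma adjusted p = 5.90e-06). In the per-sample values, which keep the genes apart, nit-10 alone had 2.27, 2.81 and 3.38 FPKM in the libraries labelled Δnit-4, against 992, 710 and 736 FPKM in wild type. That is a difference of -7.73 ± 0.73 log2 (limma adjusted p = 2.44e-12). NCU11348 alone had 102.8 ± 6.22 FPKM in the libraries labelled Δnit-4 and 119.9 ± 3.88 FPKM in wild type (SD, n = 3 each) and was not called. The merged entry thus understated the difference of nit-10.

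The same genes were measurable in wild type on ammonium. nit-6 had 71.8 to 85.0 FPKM there, nit-3 6.36 to 9.21 FPKM, and nit-10 alone 49.5 to 63.7 FPKM. The libraries labelled Δnit-4 on nitrate lay below the lowest of these values in all 3 genes. This last comparison crosses strain and medium together, and no test of it was made.

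**Figure D1:**
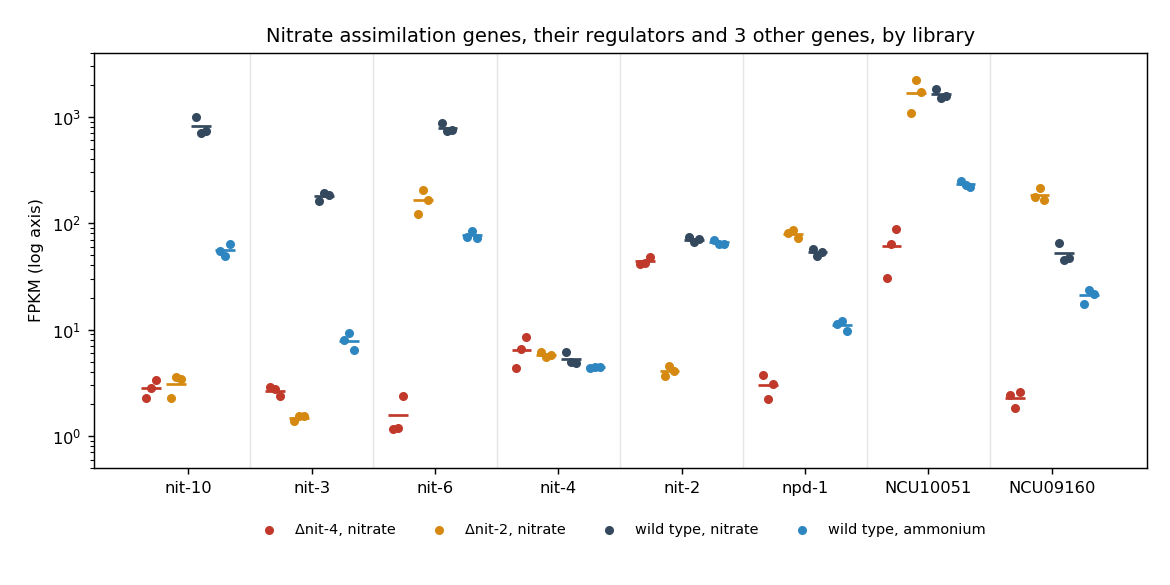
FPKM on a log axis of 8 genes in the libraries labelled Δnit-4 and in Δnit-2 and wild type libraries on nitrate, and in wild type libraries on ammonium; points are libraries, bars are means of 3, and nit-10 is shown from the per-sample values. nit-10, nit-3 and nit-6 lie under 4 FPKM in the libraries labelled Δnit-4 and above 100 FPKM in wild type on nitrate. In Δnit-2, nit-6 lies between these groups, while the means of npd-1, NCU10051 and NCU09160 are no lower than in wild type on nitrate.

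Across all genes tested, 616 of 8558 (7.2%) were called: 293 higher (3.42%) and 323 lower (3.77%) in the libraries labelled Δnit-4. At an unadjusted p under 0.05 there were 3849. The median difference of all genes was 0.01 log2. Most differences were small, since 248 of the higher and 303 of the lower genes lay under 2 log2, and 10 higher and 7 lower genes reached 3 log2. The 3 and 3 libraries did not overlap for 291 of the higher and 309 of the lower calls; over all genes tested, 23.4% lay higher and 21.6% lower without overlap. Of the called genes 94 (15.3%) had a symbol, 25 among the higher (8.53%) and 69 among the lower (21.4%), against 12.7% of all genes tested.

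Library 1 carried part of these calls. It was the highest of the 3 libraries labelled Δnit-4 in 258 of the 293 higher genes and the lowest in 304 of the 323 lower genes. Without it 309 genes (3.61%) were called, 169 higher (1.97%) and 140 lower (1.64%). Of these, 166 and 134 were among the calls with all libraries. None of the 616 genes changed sign, but for the 291 higher and 309 lower calls without overlap it could not change.

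**Figure D2:**
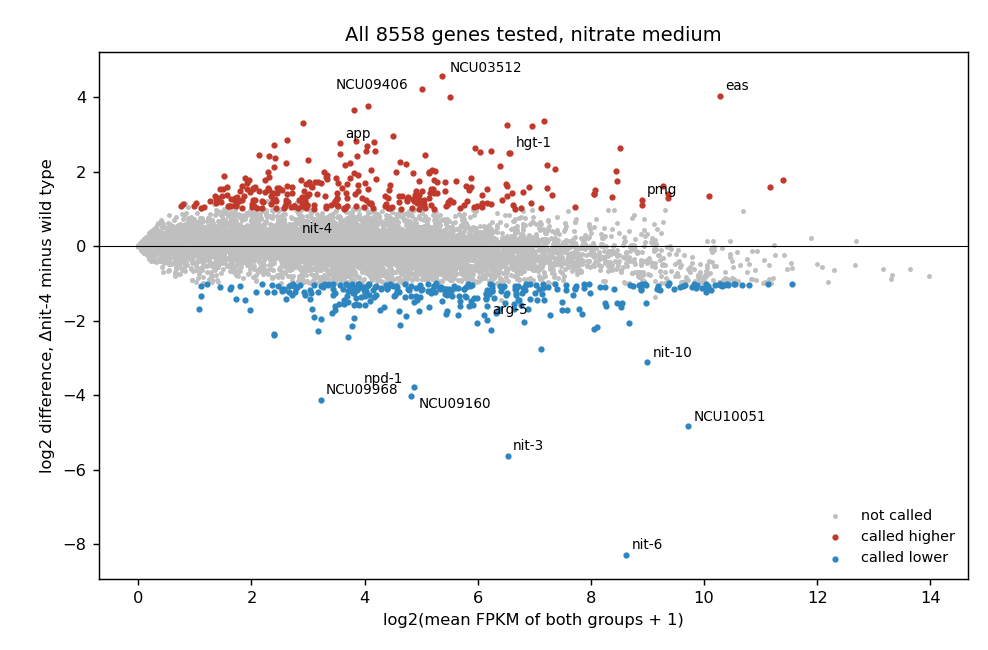
Log2 difference, libraries labelled Δnit-4 minus wild type on nitrate, against log2 of the mean FPKM of both groups plus 1; each point is 1 of 8558 genes. The genes of nitrate assimilation, NCU10051, NCU09160 and npd-1 stand below the cloud and eas, NCU03512 and NCU09406 above it, while nit-4 lies inside it.

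**Figure D3:**
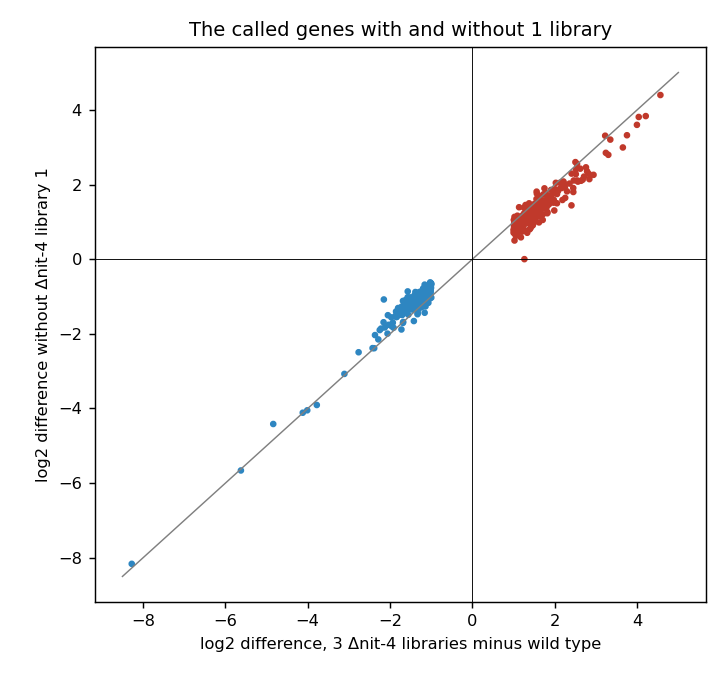
Log2 difference of the 616 called genes with all 3 libraries labelled Δnit-4 (horizontal) and without library 1 (vertical); the grey line marks equal values. Most points lie nearer to 0 without library 1, and nit-6, at -8.27 and -8.16 log2, lies close to the line.

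Among the regulators the changes were small. Of 8 genes of the nitrogen regulator list 0 were called by limma, with 3 at an unadjusted p under 0.05. nit-2 had 40.9, 42.5 and 48.5 FPKM in the libraries labelled Δnit-4, against 73.7, 66.2 and 70.6 FPKM in wild type. The groups did not overlap and the adjusted p was 1.74e-05, but the difference of -0.66 log2 was under the threshold. pco-1, an activator of purine catabolism genes, differed by 0.29 log2 (limma adjusted p = 0.000727), at 16.5 to 18.9 FPKM in the libraries labelled Δnit-4 and 13.4 to 14.5 FPKM in wild type. nmr differed by -0.18 log2 (adjusted p = 0.487) and NCU00445, the amn-1 gene by background knowledge, by 0.23 log2 (adjusted p = 0.0777).

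The genes that build ammonium into amino acids were not called by limma either, 0 of 5, with 3 at an unadjusted p under 0.05. am, the NADP-specific glutamate dehydrogenase gene, had 309.7, 493 and 539.8 FPKM in the libraries labelled Δnit-4, against 699, 815 and 774 FPKM in wild type. The groups did not overlap, and the difference was -0.80 log2 (limma adjusted p = 0.0189). gdh-1, the NAD-specific glutamate dehydrogenase gene that degrades glutamate, leaned the other way, with 23.9 to 34.5 FPKM in the libraries labelled Δnit-4 and 14.9 to 18.5 FPKM in wild type (0.68 log2, adjusted p = 0.00677). gln-1 and gln-2 encode glutamine synthetase and en(am)-2 glutamate synthase. Their differences were -0.52, 0.14 and -0.26 log2 (limma adjusted p = 0.0255, 0.647 and 0.424).

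Among genes for the use of other nitrogen sources, those of purine breakdown and the general permease were higher. Both listed genes of purine breakdown rose. aln-1, the allantoinase gene, had 108, 93.1 and 88.2 FPKM in the libraries labelled Δnit-4, against 36.9, 35.3 and 38.3 FPKM in wild type (1.36 ± 0.25 log2, limma adjusted p = 2.76e-05). xdh-1, for xanthine dehydrogenase, had 43.5, 36.8 and 26.4 FPKM in the libraries labelled Δnit-4, against 10.5, 14.3 and 15.0 FPKM in wild type (1.34 ± 0.23 log2, limma adjusted p = 6.68e-06). pmg, the general amino acid permease gene, was at 649.9 to 695 FPKM in the libraries labelled Δnit-4, against 245 to 305 FPKM in wild type, a rise of 1.25 log2 (adjusted p = 6.89e-07). All 3 were called without library 1 as well.

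The other listed permeases did not follow pmg. mtr, for the neutral amino acid permease, had 175, 399 and 561 FPKM in the libraries labelled Δnit-4, against 943, 675 and 691 FPKM in wild type. It fell by 1.16 log2 (limma adjusted p = 0.0278), a call that was lost without library 1 (-0.68 log2, adjusted p = 0.327). pmb, for basic amino acids, differed by -0.50 log2 (adjusted p = 0.0625).

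Amino acid synthesis was the listed group with the most genes called lower, though not with the highest share. Of 49 genes named for the synthesis of amino acids, 27 fell (55.1%) and 0 rose. The share lower was 60% of the 10 ribosomal protein genes and 3.77% of all genes. Of the 49 differences 48 were negative, and their median was -1.09 log2 against 0.01 over all genes. Without library 1, 18 of the 49 fell, where 1.64% of all genes did. The summed level of the 49 genes was 2737 to 4682 FPKM in the libraries labelled Δnit-4, lowest in library 1, and 7819 to 7981 FPKM in wild type. All 5 aro genes of the route to the aromatic amino acids fell, by 1.32 to 1.82 log2. Of 13 genes with an arg symbol or synonym 8 fell, of 4 ilv genes 3, of 4 lys genes 2, of 4 his genes 2, of 5 trp genes 2, of 5 leu genes 2 and of 5 met genes 1.

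arg-5, for acetylornithine aminotransferase of arginine synthesis, had 15.1, 35.1 and 38.9 FPKM in the libraries labelled Δnit-4, against 116, 106 and 111 FPKM in wild type (-1.97 ± 0.44 log2, limma adjusted p = 0.00034). met-7, for cystathionine gamma-synthase, had 13.5, 22.2 and 29.3 FPKM in the libraries labelled Δnit-4, against 90.7, 65.7 and 75.0 FPKM in wild type (-1.84 ± 0.37 log2, limma adjusted p = 0.000115). In both genes the groups did not overlap, and library 1 was the lowest of the libraries labelled Δnit-4. aro-7, which encodes an enzyme of the first step of the aromatic route, fell by 1.82 log2 (limma adjusted p = 8.38e-05), at 58.6, 112 and 148 FPKM in the libraries labelled Δnit-4, against 364, 332 and 361 FPKM in wild type. lys-3 of lysine synthesis fell by 1.81 log2 (adjusted p = 4.28e-05). These 4 genes were called without library 1, at -1.43 to -1.56 log2. In wild type on ammonium they lay at 103 to 121 FPKM (arg-5), 81.3 to 85.5 FPKM (met-7), 404 to 434 FPKM (aro-7) and 77.0 to 83.9 FPKM (lys-3).

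Ribosomal protein genes were lower by a narrower margin. Of 10 listed genes 6 fell, all 10 differences were negative, and the median was -1.005 log2. crp-2 had 522, 1014 and 968 FPKM in the libraries labelled Δnit-4, against 1538, 1875 and 1586 FPKM in wild type (-1.05 log2, limma adjusted p = 0.000967). Without library 1 crp-2 was at -0.74 log2 (adjusted p = 0.0519), and 0 of the 10 genes were called by limma, with 8 at an unadjusted p under 0.05. With all 3 libraries but a fit of only these 6 libraries, 0 were called as well, with 10 at an unadjusted p under 0.05. Of 11 heat shock genes hsp70-2 and hsp70-5 fell, by 1.17 and 1.13 log2 (limma adjusted p = 0.01 and 0.000428), and neither was called without library 1. The share of heat shock genes called was 18.2%. Of 13 sulfur genes cys-14, a sulfate permease gene, fell by 1.13 log2 (limma adjusted p = 0.0166). The share of sulfur genes called, 7.69%, was near the 7.2% over all genes. Without library 1 cys-14 was not called (-1.08 log2, limma adjusted p = 0.0757). Of 6 phosphate genes 0 were called by limma, with 4 at an unadjusted p under 0.05.

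**Figure D4:**
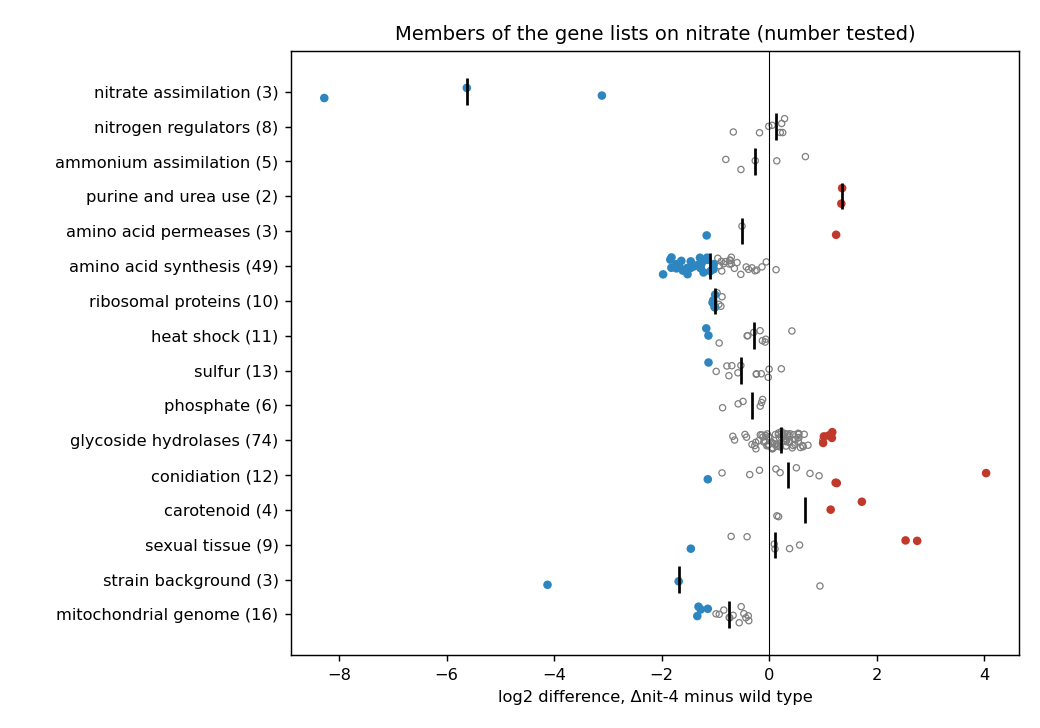
Log2 difference, libraries labelled Δnit-4 minus wild type on nitrate, of each tested member of 16 gene lists, with the number tested after the name; filled points were called (red higher, blue lower), open points were not, and black bars are medians. Nitrate assimilation stands furthest to the left, and amino acid synthesis lies almost wholly below 0.

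The 10 largest falls were taken among called genes with no overlap and a mean of at least 10 FPKM in the higher group, and 7 of them were not nitrate assimilation genes. NCU10051 had 30.6, 63.3 and 88.3 FPKM in the libraries labelled Δnit-4, against 1818, 1504 and 1549 FPKM in wild type, a difference of -4.84 ± 0.63 log2 (limma adjusted p = 2.13e-08). NCU09160 had 2.44, 1.84 and 2.59 FPKM in the libraries labelled Δnit-4, against 64.5, 45.3 and 47.5 FPKM in wild type (-4.01 ± 0.42 log2, limma adjusted p = 1.12e-10). npd-1, for a nitronate monooxygenase, had 3.73, 2.24 and 3.06 FPKM in the libraries labelled Δnit-4, against 57.0, 49.5 and 54.1 FPKM in wild type (-3.78 ± 0.52 log2, limma adjusted p = 7.08e-08). In these 3 genes the groups stood wide apart, and the differences without library 1 were -4.42, -4.05 and -3.91 log2. NCU06132, NCU00602 and NCU04466 fell by 2.76, 2.43 and 2.29 log2 (limma adjusted p = 1.12e-10, 0.00269 and 7.85e-06). The remaining gene of these 7, NCU09968, belongs to the strain background list and is given below.

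The 10 largest rises, chosen likewise, were led by genes without a symbol. NCU03512 had 93.9, 95.4 and 45.6 FPKM in the libraries labelled Δnit-4, against 1.29, 1.62 and 4.36 FPKM in wild type (4.56 ± 0.51 log2, limma adjusted p = 4.17e-10). NCU09406 had 95.0, 50.5 and 36.7 FPKM in the libraries labelled Δnit-4, against 2.11, 1.47 and 2.84 FPKM in wild type (4.21 ± 0.47 log2, limma adjusted p = 4.17e-10). NCU06153 rose by 3.99 log2, NCU05624 by 3.75, NCU05639 by 3.65, NCU05156 by 3.35, NCU06915 by 3.30, NCU03415 by 3.24 and NCU07536 by 3.22, with limma adjusted p between 1.13e-10 and 4.74e-06. All of these were called without library 1, at 2.80 to 4.40 log2. The gene table used here gives none of them a name.

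The remaining gene of the 10, eas (NCU08457), encodes the hydrophobin that coats conidia. It had 3121, 2177 and 1725 FPKM in the libraries labelled Δnit-4, against 105.5, 229 and 107 FPKM in wild type. The means differed 15.9-fold, and the difference was 4.04 ± 1.00 log2 (limma adjusted p = 0.00125), and 3.81 log2 without library 1 (adjusted p = 0.0151). Its standard error uses the spread shared by all 27 groups, among them the starved wild type libraries, where eas ranged from 27.7 to 7622 FPKM in the per-sample values.

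Genes with a symbol that rose most were chosen after their values were seen. They were taken among called genes with no overlap and a mean of at least 10 FPKM in the higher group. hgt-1, a high-affinity glucose transporter gene, had 216, 159 and 111 FPKM in the libraries labelled Δnit-4, against 24.6, 30.5 and 25.1 FPKM in wild type (2.51 ± 0.34 log2, limma adjusted p = 7.51e-08). fbp-1, for the gluconeogenic fructose bisphosphatase, had 104, 42.7 and 25.4 FPKM in the libraries labelled Δnit-4, against 9.70, 6.77 and 7.98 FPKM in wild type (2.45 ± 0.33 log2, limma adjusted p = 6.45e-08). fdh, for formate dehydrogenase, had 478, 159 and 118 FPKM in the libraries labelled Δnit-4, against 44.0, 42.4 and 48.3 FPKM in wild type (2.18 ± 0.32 log2, limma adjusted p = 2.65e-07). In all 3 genes library 1 was the highest of the libraries labelled Δnit-4, and without it the differences were 2.28, 1.91 and 1.59 log2. ph7, an ATPase gene also known as ena-2, rose by 2.14 log2, and acd-1 and acd-2 by 1.52 and 1.47 log2 (limma adjusted p = 7.93e-11, 9.64e-05 and 2.13e-08).

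The labelled tissue was mycelium, and markers of other stages were read beside these results. Of 12 conidiation genes, counting acu-6 through its synonym con-3, eas, con-6 and con-10 rose and ccg-9 fell. The share called was 33.3%, against 7.2% over all genes. The summed level of the 12 genes was 3163 to 5506 FPKM in the libraries labelled Δnit-4 and 1460 to 2086 FPKM in wild type. Without eas the sum over the other 11 genes overlapped, at 1166 to 2385 FPKM in the libraries labelled Δnit-4 and 1244 to 1981 FPKM in wild type. con-6 had 2.1 to 3.62 FPKM in the libraries labelled Δnit-4 and 0.401 to 0.739 FPKM in wild type, and con-10 had 3.02 to 7.72 FPKM in the libraries labelled Δnit-4 and 0.935 to 1.66 FPKM in wild type. con-13 was at 0.227 to 0.245 FPKM in the libraries labelled Δnit-4 and at 0 to 0.224 FPKM in wild type. The activator gene fl was at 29.5 to 35.0 FPKM in the libraries labelled Δnit-4 and 20.7 to 26.7 FPKM in wild type and was not called. csp-1 lay lower without overlap, at -0.87 log2 (limma adjusted p = 4.59e-05), under the threshold of size. acon-2 and con-8 leaned lower, at -0.36 and -0.18 log2, and ccg-1 was at 0.13 log2. Of the 12 differences 8 were positive and 4 negative. Without library 1, eas alone of the list was called. Of 4 carotenoid genes al-1, for phytoene desaturase, and al-3, for geranylgeranyl diphosphate synthase, rose by 1.73 and 1.15 log2 (limma adjusted p = 3.81e-06 and 2.43e-07), of which al-1 was called without library 1. The share of carotenoid genes called was 50%.

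Of 10 genes of sexual tissue 9 were tested, and 33.3% of these were called, against 7.2% over all genes. app, the abundant perithecial protein gene, had 28.7, 15.3 and 14.9 FPKM in the libraries labelled Δnit-4, against 1.91, 1.41 and 2.56 FPKM in wild type (2.76 log2, limma adjusted p = 2.84e-06). ccg-4, the pheromone precursor gene of mating type A, had 26.1, 32.1 and 22.1 FPKM in the libraries labelled Δnit-4, against 4.78, 3.75 and 2.82 FPKM in wild type (2.54 log2, limma adjusted p = 0.00514). poi-2 fell by 1.46 log2 (adjusted p = 0.00253), and per-1 lay at 0.137 FPKM or less in the libraries labelled Δnit-4 and 0.143 or less in wild type. The summed level of the list was 98.2 to 134 FPKM in the libraries labelled Δnit-4 and 80.0 to 113 FPKM in wild type. The part of conidia or sexual tissue in the rises of eas, app and ccg-4 was not tested, and in bulk mycelium more cells of a kind and more RNA per cell cannot be told apart.

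Of 74 tested glycoside hydrolase genes 5 rose and 0 fell, at a median of 0.22 log2. The share called, 6.76%, was near the 7.2% over all genes. The largest rises were those of gh13-5, gh3-5, gh76-5 and gh11-1, at 1.18, 1.17, 1.11 and 1.02 log2 (limma adjusted p = 3.05e-10, 4.63e-06, 4.93e-06 and 0.000334), and 1 of the 5 calls was made without library 1. Of 16 tested genes of the mitochondrial genome 4 fell (25%), where 3.77% of all genes did. Wild type library 1 had 0.141% of its FPKM in these genes, against 0.0452 and 0.0605% in the other wild type libraries and 0.047 to 0.0642% in the libraries labelled Δnit-4. Without that wild type library 0 of them were called by limma, also at an unadjusted p under 0.05, and all 3 nitrate assimilation genes were called.

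A pair of genes marked a difference between strains that also set Δnit-2 apart from wild type. NCU09968 was listed at 0, 0.0163 and 0.0131 FPKM in the libraries labelled Δnit-4, against 14.4, 18.3 and 17.3 FPKM in wild type, and it was at most 0.0164 FPKM in Δnit-2. NCU09969 was listed at 0 in all 3 libraries labelled Δnit-4, against 1.90 to 2.49 FPKM in wild type, and was at most 0.0283 FPKM in Δnit-2. Both were called. The mating type gene matA-1 was at 2.47 to 10.4 FPKM in the libraries labelled Δnit-4 and 1.77 to 1.94 FPKM in wild type, so both groups carried this transcript. matA-2 and matA-3 were not tested, at 0.224 FPKM or less in the libraries labelled Δnit-4 and 0.142 or less in wild type. Background differences between the strains and the deletion cannot be told apart for genes such as NCU09968 and NCU09969.

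The libraries labelled Δnit-4 were also set against Δnit-2 on the same nitrate medium. Of 8558 genes 568 (6.64%) were called. Both strains had little nit-3, at 2.37 to 2.86 FPKM in the libraries labelled Δnit-4 and 1.37 to 1.56 FPKM in Δnit-2. nit-10 alone was at 2.27 to 3.38 FPKM in the libraries labelled Δnit-4 and 2.27 to 3.56 FPKM in Δnit-2. nit-6 differed, at 1.16 to 2.39 FPKM in the libraries labelled Δnit-4 and 121, 204 and 166 FPKM in Δnit-2, a difference of -5.99 ± 0.97 log2 (limma adjusted p = 1.53e-06). NCU10051, NCU09160 and npd-1 were likewise lower in the libraries labelled Δnit-4 than in Δnit-2, at -4.82, -5.82 and -4.34 log2 (limma adjusted p = 8.02e-09, 5.97e-18 and 5.19e-10). ncw-5 was at 9.27 to 73.4 FPKM in the libraries labelled Δnit-4 and at 603 to 897 FPKM in Δnit-2 (-4.78 log2, adjusted p = 2.32e-09).

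The largest differences in the other direction were in genes that Δnit-2 barely expressed. NCU01348 had 416, 502 and 787 FPKM in the libraries labelled Δnit-4, against 1.11, 1.51 and 1.31 FPKM in Δnit-2 (7.90 ± 0.35 log2, limma adjusted p = 1.69e-28). NCU09773, NCU06416, NCU04435 and NCU07129 followed with 7.18, 6.83, 6.37 and 5.68 log2. NCU01348 differed from wild type by 0.32 log2 and was not called (limma adjusted p = 0.51). The other 4 also rose above wild type in the libraries labelled Δnit-4, by 1.56, 1.39, 2.52 and 2.08 log2 (limma adjusted p = 0.000237, 2.31e-05, 7.93e-11 and 0.00114). Among the nitrogen panel, pmg was at 649.9 to 695 FPKM in the libraries labelled Δnit-4 and 117 to 167 FPKM in Δnit-2, and aln-1 at 88.2 to 108 FPKM in the libraries labelled Δnit-4 and 7.18 to 9.56 FPKM in Δnit-2. Both lay above wild type in the libraries labelled Δnit-4 and below it in Δnit-2. Of the 49 amino acid synthesis genes 11 were lower in the libraries labelled Δnit-4 than in Δnit-2 and 0 higher, and of 10 ribosomal protein genes 0 were called by limma, with 0 at an unadjusted p under 0.05.

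Against wild type on nitrate, Δnit-2 had 771 called genes (9.01%). That comparison uses the same 3 wild type libraries as the one of the libraries labelled Δnit-4, so values are given side by side with no overlap. The log2 differences from wild type were -8.27 in the libraries labelled Δnit-4 and -2.28 in Δnit-2 for nit-6 (limma adjusted p = 0.0522 in Δnit-2). They were -5.62 and -6.18 for nit-3, -4.84 and -0.02 for NCU10051, -4.01 and 1.81 for NCU09160, and -3.78 and 0.56 for npd-1, in the same order of strains. For gln-1 they were -0.52 in the libraries labelled Δnit-4 and -2.19 in Δnit-2, and for am -0.80 and -1.75. Although not called in Δnit-2, nit-6 was lower there without overlap, at 121 to 204 FPKM against 734 to 867 FPKM in wild type. The standard error of nit-6 uses the spread shared by all 27 groups. Among them are the starved wild type libraries, where nit-6 ranged from 2.56 to 996.7 FPKM.

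The same strains without nitrogen gave a comparison that shares no library with the one on nitrate. Here the 6 wild type libraries fell into sets by their label numbers that differed widely. Per-sample values after median-ratio scaling of nit-3 were 376 to 522 FPKM in labels 1 to 3 and 2.37 to 5.24 FPKM in labels 4 to 6. nit-6 was at 633 to 985 and 2.77 to 8.60 FPKM, nit-10 at 974.5 to 1599 and 19.8 to 27.8 FPKM, and eas at 27.7 to 103 and 6694 to 7622 FPKM in these sets. The starved libraries labelled Δnit-4 had 1.75 to 2.33 FPKM of nit-3, 1.28 to 1.75 of nit-6, 7.52 to 10.2 of nit-10 and 137 to 217 of eas. They therefore lay below both wild type sets for the nitrate genes, by a wide margin for labels 1 to 3 and a narrow one for labels 4 to 6, and between the sets for eas.

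**Figure D5:**
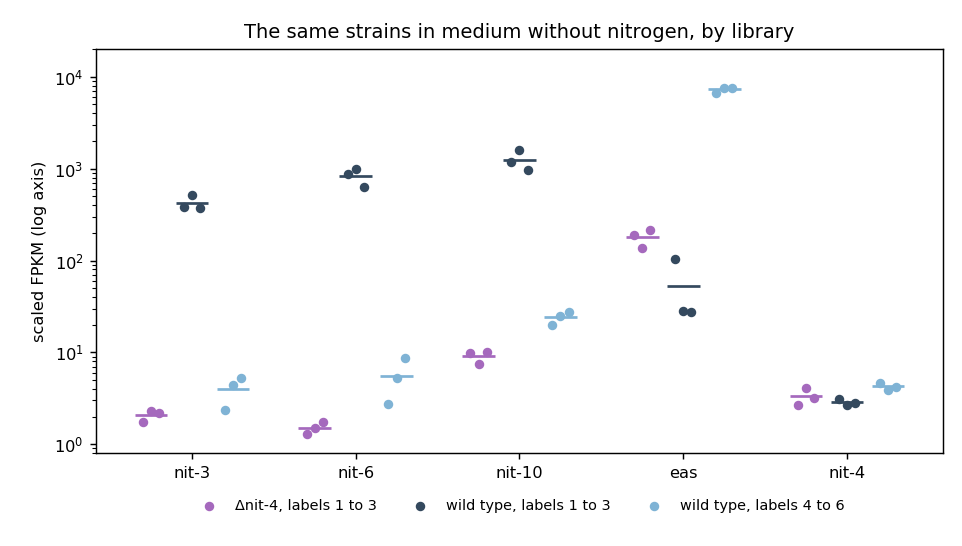
Scaled per-sample FPKM on a log axis of 5 genes in the libraries labelled Δnit-4 and the wild type libraries, split by label number, without nitrogen; points are libraries and bars are means of 3. The nitrate genes are high in wild type labels 1 to 3 and low in labels 4 to 6, eas runs the other way, and nit-4 lies between 2.65 and 4.67 FPKM throughout.

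With all 6 wild type libraries, 456 genes (5.33%) were called without nitrogen, 129 higher (1.51%) and 327 lower (3.82%) in the libraries labelled Δnit-4. Of the 293 genes higher on nitrate 76 (25.9%) were also higher without nitrogen, which is 58.9% of the 129, and 1 was lower. Of the 323 genes lower on nitrate 176 (54.5%) were also lower without nitrogen, which is 53.8% of the 327, and 1 was higher. These shares depended on the wild type set. In the per-sample values, 635 genes (7.29%) were called on nitrate, and without nitrogen 896 (10.3%) against labels 1 to 3 and 491 (5.64%) against labels 4 to 6. Of the genes lower on nitrate in those values, 73.9% were lower against labels 1 to 3 and 30.9% against labels 4 to 6, and of the higher genes 50% and 10.8% were higher. Of the higher genes 0 were lower against labels 1 to 3 and 29 of 286 against labels 4 to 6, and of the lower genes 0 and 3 of 349 were higher. Of the 49 amino acid synthesis genes 28 fell without nitrogen with all 6 wild type libraries, 37 against labels 1 to 3 and 9 against labels 4 to 6. Their summed per-sample level after scaling was 1770 to 1888 FPKM in the starved libraries labelled Δnit-4, against 4031 to 6116 FPKM in wild type labels 1 to 3 and 1885 to 2006 FPKM in labels 4 to 6.

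Whether the difference between strains itself changed with the medium was tested as an interaction, and 187 genes (2.19%) were called. Of these 122 were positive, and 146 of 189 after median-ratio scaling. Without library 1 labelled Δnit-4 on nitrate 96 genes were called. In a fit of only the 4 groups 0 were called by limma, with 1017 at an unadjusted p under 0.05. nit-3 and nit-6 were not called, at -1.81 and -3.51 log2 with all starved wild type libraries. In the per-sample values nit-3 was at 1.45 log2 against labels 1 to 3 and -4.99 log2 against labels 4 to 6, called in opposite directions (limma adjusted p = 0.000544 and 1.69e-20). nit-6 was at 0.06 and -7.01 log2 against these sets, called against labels 4 to 6 (limma adjusted p = 0.959 and 2.04e-17). The largest called gene was eas, at 5.62 log2 with all starved wild type libraries, 2.01 log2 against labels 1 to 3 and 9.36 log2 against labels 4 to 6.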

How the data were processed

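RNA-sequencing libraries of mycelium were deposited by the authors as FPKM, in 1 file per sample and in 1 joint table of 86 columns. HISAT2 2.1.0 is named per the submitters' processing notes, with Cuffnorm 2.2.1 and Cufflinks 2.2.1. Build and counting options, strand included, are not given in the sources, which leaves overlapping genes uncertain. Loci equalled the NC12 gene table for 99.9% of genes. Of 9598 joint entries 153 merge neighbouring genes. Column numbers differed from label numbers for 51 columns, so columns were used by group, and libraries carry joint-table numbers.

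The main test was limma 3.58.1 (R 4.3.3) on log2(FPKM + 1), 1 mean per group over 86 libraries, trended prior, 59 residual and 3.73 prior degrees of freedom, for genes that reached 1 FPKM in at least 3 libraries. This scale understates differences of low genes. There were 5 comparisons. Depth was estimated from the upper confidence bounds, whose implied fragments came out whole (within 0.05) for 78.3% of values under 20. It covers counting error only. Of 100 replicate pairs 0 were identical. The fit was also run on simulated data with independent normal errors and the same spread of a gene in all groups. The simulation held no library that stands apart and no split group, so it cannot show how these affect the calls.

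Members, lists and tests were chosen with earlier results of these data known. Lists used gene symbols, and those for molybdenum cofactor and ammonium transport had no member. fr, the only listed pentose phosphate gene, was not called. Named genes were nit-4 and its neighbours, a nitrogen panel, up to 4 called genes per list and direction, the 10 largest non-overlapping calls with a mean of at least 10 FPKM in each direction, and the 5 largest of the Δnit-2 comparison and the interaction, from which not every gene is printed. Up to 12 called genes with a symbol per direction, non-overlapping and with that mean, were added after their values were seen. Sequences were not used here. Tables were made with pandas 2.3.3 and figures with matplotlib 3.10.9 in Python 3.11.15.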

Additional observations from a re-analysis of the deposited data

Results flagged for a closer look

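The strain difference on nitrate differed from that without nitrogen by the interaction test for the following genes, given as the difference on nitrate minus the difference without nitrogen in log2, with all 6 starved wild type libraries. It was positive for eas (5.62), NCU06153 (3.53), NCU03512 (3.28), NCU08455 (3.16), app (2.94), NCU06915 (2.65), NCU05639 (2.45), NCU03415 (2.14), NCU07536 (2.1), NCU05624 (1.77) and aln-1 (1.11). It was negative for NCU09160 (-2.42), NCU09165 (-2.40), NCU02545 (-2.15), NCU10070 (-2.09) and NCU09415 (-1.68). All 16 were called in the same direction against starved wild type labels 4 to 6 and 11 of them against labels 1 to 3. These fits use again the libraries by which the 16 were chosen, so they are not independent support. Over all 8709 genes of the per-sample values, 736 were called against labels 4 to 6 and 303 against labels 1 to 3. The fit of only the 4 groups called 0 genes, so each of the 16 rests on the spread shared over all groups.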

How the results depend on the processing

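On nitrate, the calls of 616 genes moved to 64 (43 higher, 21 lower) with the replicate block, which fits label numbers together with strain in these 6 libraries alone, on per-sample values. The numbers do not pair the samples, since same-numbered libraries had correlations of -0.28 to 0.03 in their deviations, and the same fit without the numbers, added after the data were seen, gave 418. Leaving out each library in turn gave 309 to 848. Other settings stayed within 1.5 times: a pseudocount of 0.1 gave 848, and the fit of only the 6 libraries 415. Without nitrogen, 456 calls moved to 230 in the fit of only the groups compared, and 896 against wild type labels 1 to 3 in the per-sample values. The replicate block, which also used per-sample values, wild type labels 1 to 3 and only the groups compared, gave 779, and 834 without the numbers, so these choices changed together. The interaction's 187 calls moved to 0 in the fit of only the groups compared, 303 against labels 1 to 3, 736 against labels 4 to 6, 63 with the replicate block and 103 without the numbers, both with the same joint changes, and to between 96, without library 1 labelled Δnit-4 on nitrate, and 294, without 1 starved wild type library. Median-ratio scaling gave 189 interaction calls, 146 of them positive, where 122 of 187 were positive. Calls against Δnit-2, and of Δnit-2 against wild type, stayed within 1.5 times under all settings. Of 64 called genes among 80 named, 48 were called without library 1; 42 lost their call with the replicate block. gln-2, not called at 0.14 log2, lay between -0.0656 and 0.326 log2 with each library left out, negative without library 3 labelled Δnit-4. The causes were not tested. Only 3 libraries in each group on nitrate limit the precision.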
